A study of Mus musculus with 3 samples.

Results

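Peaks of the chromatin remodeler CHD7 and of the transcription factor SOX2 were described at 10 genes whose products write, remove or read methylation of histone H3: Kmt2a, Kmt2b, Kmt2c, Kmt2d, Kdm6a, Ezh1, Ezh2, Suz12, Eed and Jarid2. The genes were chosen by name, as genes linked to Kabuki syndrome and its partners and as the core of Polycomb repressive complex PRC2, out of 21887 protein-coding genes. A peak belonged to a gene when it lay within 1 kb of either outer border of the gene (its ends), inside it, or within 50 kb of it. The peaks came from CUT&Tag, in which an antibody brings the Tn5 transposase to DNA near a protein, on wild-type mouse otocysts of the stage E10.5, the epithelial vesicles that form the inner ear. Cells of 34 otocysts were pooled and divided into 3 samples, 1 for an antibody to CHD7, 1 for an antibody to SOX2 and 1 left without primary antibody. The sources used here do not give the strain or sex of the embryos, and the sample without primary antibody is not analysed here. There was 1 library per antibody, so no value below has a replicate check, and a pool of embryos says nothing of the spread between animals. The lists held 33035 CHD7 and 155548 SOX2 peaks, of which 33 and 114 fell in the 10 loci. Read depth is unknown. In such bulk samples, a peak in a few cells and a weak peak in many cannot be told apart. As a look at the labelled tissue, 11 otic vesicle genes such as Pax2, Pax8 and Hmx3 were checked, and 6 had a CHD7 peak and 8 a SOX2 peak at an end, against 30.8% and 59.7% of all protein-coding genes. The SOX2 count is not far from that share, and peaks do not measure expression, so these counts say little about the tissue.

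Methylation of lysine in the tail of histone H3 marks genes as active or silent. The KMT2 enzymes, relatives of Drosophila Trithorax, methylate the H3K4 position: KMT2A and KMT2B mainly at promoters, KMT2C and KMT2D mainly at enhancers. KDM6A, a subunit of the complexes built on KMT2C and KMT2D, removes methylation from H3K27, the mark that PRC2 deposits through EZH1 or EZH2 together with EED and SUZ12. Variants of KMT2D or KDM6A cause Kabuki syndrome, whose features, hearing loss among them, overlap those of CHARGE syndrome, caused by variants of CHD7. SOX2 is required to form the sensory epithelia of the ear.

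CHD7 peaks lay at an end of 7 of the 10 genes (Kmt2b, Kmt2c, Kdm6a, Ezh2, Suz12, Eed and Jarid2), where 30.8% of all protein-coding genes had one. SOX2 peaks lay at an end of 7 genes as well (Kmt2b, Kmt2c, Kmt2d, Kdm6a, Ezh2, Eed and Jarid2), a share near the 59.7% of all protein-coding genes. Both proteins were found at 6 of 10, against 28.3% of all genes, and neither at Kmt2a and Ezh1. Around the annotated transcription start, which a table of RefSeq promoters gave for 9 of the genes, CHD7 was within 1 kb at 7 of 9, SOX2 at 6 of 9 and both at 6 of 9, against 31.0%, 54.9% and 28.2% of all genes in that table. In this count Kmt2d joined the genes with CHD7, and Kmt2b, which is not in the table, left it. Promoters rich in CpG carried peaks more often than others: 53.0% of genes with such a promoter had CHD7 at a start, 78.6% SOX2 and 48.9% both. Of the 9 genes 8 had such a promoter (over 55% G and C and a CpG ratio, observed over expected, above 0.6, in 300 bases), and Eed, with 54.7% G and C, did not. The part of promoter CpG content in the counts of the 10 genes was not tested. All these numbers are counts of genes in single libraries, and no test was made.

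**Figure D1:**
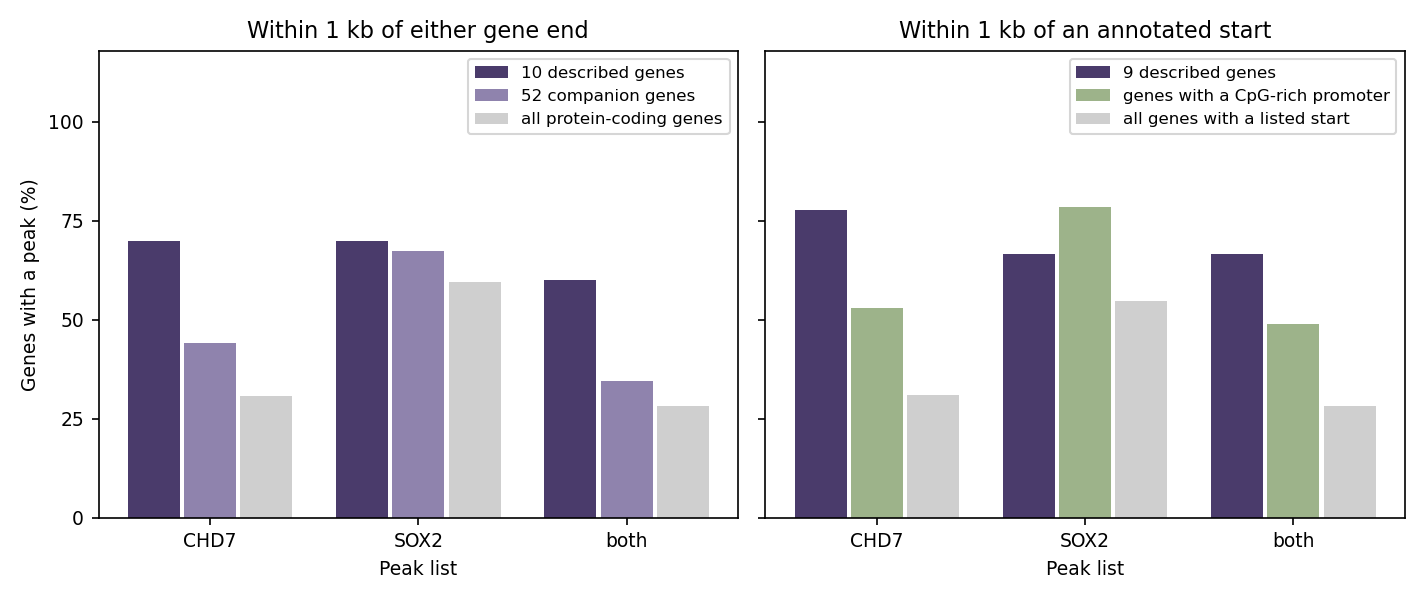
Share of genes with a CHD7 peak, a SOX2 peak or both (percent, bars from 0). Left, within 1 kb of either gene end, for the 10 genes, 52 companion genes of the same pathways and all protein-coding genes; right, within 1 kb of an annotated start, for 9 of the 10 genes, genes with a CpG-rich promoter and all genes with a listed start. The CHD7 bar of the 10 genes stands at 7 of 10, against 30.8% of all genes, and their SOX2 bar at 7 of 10, against 59.7%.

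The 250 bases before the annotated start are shown for 5 genes that differ in their peaks. Both lists cover the whole stretch at Kdm6a and Ezh2, CHD7 alone covers it at Suz12, and neither list has a base of it at Kmt2a and Ezh1. The sequences are RefSeq's on GRCm38.p6, the build also called mm10, written 5′ to 3′ along the gene's own strand: Kdm6a at chrX:18162325-18162574 (plus), Ezh2 at chr6:47595031-47595280 (minus), Suz12 at chr11:79992856-79993105 (plus), Kmt2a at chr9:44881290-44881539 (minus) and Ezh1 at chr11:101226464-101226713 (minus). Capitals mark the words ACAAAG and ACAATG, which match the core recognised by SOX proteins, on either strand.
Kdm6a: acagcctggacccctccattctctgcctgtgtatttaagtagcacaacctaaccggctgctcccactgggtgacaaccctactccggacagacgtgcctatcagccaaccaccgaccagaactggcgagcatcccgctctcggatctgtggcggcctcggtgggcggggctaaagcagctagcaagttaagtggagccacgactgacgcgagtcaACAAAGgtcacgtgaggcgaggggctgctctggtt
Ezh2: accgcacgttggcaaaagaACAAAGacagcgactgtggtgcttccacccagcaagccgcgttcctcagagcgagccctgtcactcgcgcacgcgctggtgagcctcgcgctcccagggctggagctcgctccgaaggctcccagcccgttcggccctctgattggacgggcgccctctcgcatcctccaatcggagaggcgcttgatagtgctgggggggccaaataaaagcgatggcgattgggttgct
Suz12: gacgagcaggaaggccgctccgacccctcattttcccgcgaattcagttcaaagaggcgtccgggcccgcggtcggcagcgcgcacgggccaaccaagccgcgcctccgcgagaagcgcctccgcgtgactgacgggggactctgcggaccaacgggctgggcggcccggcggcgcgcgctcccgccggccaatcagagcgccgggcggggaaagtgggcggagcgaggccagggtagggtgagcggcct
Kmt2a: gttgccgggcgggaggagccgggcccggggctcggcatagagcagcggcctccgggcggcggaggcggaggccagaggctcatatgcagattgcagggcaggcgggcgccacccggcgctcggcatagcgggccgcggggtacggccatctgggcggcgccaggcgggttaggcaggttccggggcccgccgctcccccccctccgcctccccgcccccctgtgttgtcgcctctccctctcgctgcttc
Ezh1: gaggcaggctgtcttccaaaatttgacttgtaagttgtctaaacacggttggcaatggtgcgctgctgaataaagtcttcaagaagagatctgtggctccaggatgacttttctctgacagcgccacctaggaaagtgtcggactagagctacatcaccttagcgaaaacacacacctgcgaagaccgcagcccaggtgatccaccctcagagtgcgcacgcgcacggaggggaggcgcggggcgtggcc
ACAAAG occurs at Kdm6a, 35 bases before the start, and at Ezh2, 231 bases before it, and the other 3 stretches hold neither word. In both genes 89 bases separate the word from the region of maximum SOX2 signal. Of the remaining genes, Kmt2d has the reverse form CTTTGT 93 bases before its start, in a stretch covered by neither list. Eed and the first start of Jarid2, whose 250 bases both lists cover whole, hold neither word on either strand. Nor does Kmt2c, with 183 of the 250 bases in both lists, so peaks of both lists also cover stretches without these words. One of these words, on either strand, is present in the same 250 bases of 22.8% of all 21263 promoters of protein-coding genes, in 12.2% of the CpG-rich ones and in 17.6% of those with a SOX2 peak within 1 kb. A match describes letters and is not a binding site. The 5 stretches also differ in composition: with the 50 bases after the start included, Suz12 held 41 CpG and Kmt2a 36, Ezh2 31, Ezh1 23 and Kdm6a 21, where the median promoter held 13. Kmt2a, without a peak, was thus among those rich in CpG.

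**Figure D2:**
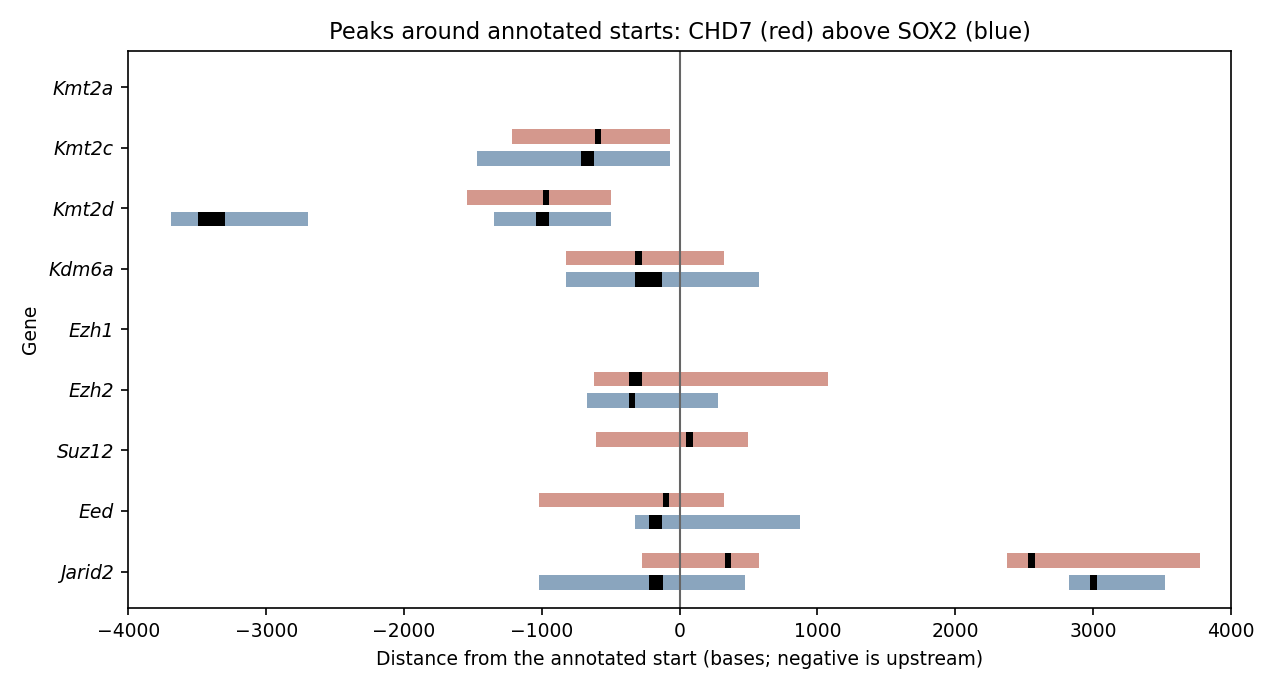
Extent of the peaks within 4 kb of the annotated start of 9 genes, with CHD7 (red) above SOX2 (blue) in each row; the x axis is the distance in bases, negative upstream (for Jarid2, from the first of its 2 listed starts), and black marks the region of maximum signal. At Kdm6a, Ezh2, Eed and Jarid2 peaks of both lists cross the start, at Suz12 a CHD7 peak alone does, and the rows of Kmt2a and Ezh1 are empty.

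The H3K4 methyltransferase genes differed among themselves. Kmt2b (chromosome 7, 30568855 to 30589056), whose human counterpart is mutated in a childhood dystonia, had a CHD7 peak at chr7:30588551-30589700 with a total signal of 1079, at the percentile 81.1 of the CHD7 list. A SOX2 peak at chr7:30588701-30589600 (total signal 2053, percentile 90.1) lay wholly within it, and their regions of maximum signal shared a base. The long noncoding RNA gene Gm32082, the microRNA gene Mir3569 and the zinc finger gene Zbtb32 also have an end within 1 kb of both peaks, so the peaks cannot be assigned to Kmt2b alone. Total signal is the authors' coverage summed over a peak, and a percentile here is the share of the same list at or below that value.

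Kmt2c (chromosome 5, 25271795 to 25498855) had the weakest CHD7 end peak of the 7, at chr5:25498851-25500000 (total signal 679, percentile 53.5). The SOX2 peak there, chr5:25498851-25500250, was among the strong ones of its list (total signal 3871, percentile 97.4) and covered the CHD7 peak completely. Both lay upstream, beginning 68 bases before the annotated start, towards the noncoding gene 4831440E17Rik, whose end is also within 1 kb.

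At Kmt2d (chromosome 15, 98831669 to 98874077), the main Kabuki syndrome gene, the outer border of the gene lies 2872 bases upstream of the annotated start. A SOX2 peak without CHD7 was at that border, at chr15:98873901-98874900 (total signal 1554, percentile 82.1). Between border and start a CHD7 peak at chr15:98871701-98872750 (total signal 483, percentile 16.3) overlapped a SOX2 peak at chr15:98871701-98872550 (total signal 1056, percentile 55.6), and both came to 496 bases of the start. The CHD7 peak reached a maximum of 12 steps, a step being the smallest unit of coverage in a list, where the median CHD7 peak reached 20, and lay 1327 bases from the border, just outside the 1 kb that define an end. Kmt2a (chromosome 9, 44803355 to 44881352), whose rearrangements drive leukaemia and whose loss of function causes Wiedemann-Steiner syndrome, had no peak of either list within 1 kb of an end or of its start. Its nearest SOX2 peak outside the gene, chr9:44801651-44802300 (total signal 880, percentile 31.4), was 1055 bases from the lower-coordinate end, within 1 kb of the neighbouring gene Ttc36.

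Kdm6a (chromosome X, 18160862 to 18279936), the Kabuki-linked H3K27 demethylase gene, carried the strongest end peaks of the 10 genes in both lists. The CHD7 peak at chrX:18161751-18162900 had a total signal of 2441 (percentile 96.0) and a maximum of 75 steps. The SOX2 peak at chrX:18161751-18163150 had a total signal of 8621 (percentile 99.5) and a maximum of 25 steps, where the median SOX2 peak reached 6. They began at the same base, their regions of maximum signal shared a base, and both crossed the annotated start, the CHD7 peak running from 824 bases upstream to 325 downstream. Among all genes with an end peak, the summed end signal of Kdm6a had the percentile 94.99 for CHD7 and 97.4 for SOX2. The peaks lay 889 bases from the outer border of the gene, because the annotated start is 1713 bases inside it. No other gene had an end within 1 kb of them.

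Of the genes for the PRC2 enzymes, Ezh2 carried both proteins at its start and Ezh1, the paralog that prevails in tissues that no longer divide, carried neither. Ezh2 (chromosome 6, 47530274 to 47595270), mutated in Weaver overgrowth syndrome, had a CHD7 peak at chr6:47593951-47595650 (total signal 1485, percentile 89.4) and a SOX2 peak at chr6:47594751-47595700 (total signal 3988, percentile 97.5). They shared 900 bases, and their maxima shared a base upstream of the start; the noncoding gene F830010H11Rik has an end at the same place. In the Ezh1 gene (chromosome 11, 101191115 to 101226463) the single peak was a SOX2 peak at chr11:101215051-101215650 (total signal 821, percentile 21.5), 10813 bases from the nearer end. The difference between the paralogs is one of single peaks in single libraries and was not tested.

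Suz12 and Eed, the scaffold and the H3K27-methylation reader of PRC2, differed in SOX2. Suz12 (chromosome 11, 79993106 to 80034123) had CHD7 but no SOX2 at an end, alone among the 10: its CHD7 peak at chr11:79992501-79993600 (total signal 1385, percentile 87.9) had its maximum just downstream of the start, and the nearest SOX2 peak was 5856 bases from an end. Among all genes, 6192 of the 6742 with CHD7 at an end also had SOX2 there. Eed (chromosome 7, 89954654 to 89980976) had a CHD7 peak at chr7:89980651-89982000 (total signal 979, percentile 77.2) and a SOX2 peak at chr7:89980101-89981300 (total signal 2229, percentile 91.6). These were shifted against each other, the CHD7 peak reaching 1024 bases upstream of the start and the SOX2 peak 875 bases downstream, with 650 bases in common and maxima that touched without a shared base.

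Jarid2 (chromosome 13, 44730774 to 44921643), which encodes an accessory subunit that helps PRC2 find its targets, had 3 places with overlapping peaks, more than any other gene of the 10 at its ends and inside. At the start a CHD7 peak (chr13:44730501-44731350, total signal 929, percentile 74.8) overlapped a SOX2 peak (chr13:44729751-44731250, total signal 2492, percentile 93.4). A second pair lay 1880 bases downstream of the nearest annotated start, with CHD7 at chr13:44733151-44734550 (total signal 615, percentile 44.1) and SOX2 at chr13:44733601-44734300 (total signal 1495, percentile 80.3). The third was deep inside the gene, where the strongest SOX2 peak of all 10 loci, chr13:44869551-44870750 (total signal 8885, percentile 99.5, maximum 53 steps), covered a CHD7 peak of 250 bases with a total signal near the bottom of its list (chr13:44869851-44870100, total signal 437, percentile 2.08). The smallest total signal of any CHD7 peak was 433 when rounded. The CHD7 peak of 250 bases was narrow, at the percentile 3.78 of width. Its maximum of 36 steps was above the list median of 20, so its signal was narrow and not low. Another SOX2 peak lay 308 bases beyond the far end, at chr13:44921951-44922850 (total signal 938, percentile 36.4), where the gene Dtnbp1 ends as well. Exons and introns were not told apart.

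**Figure D3:**
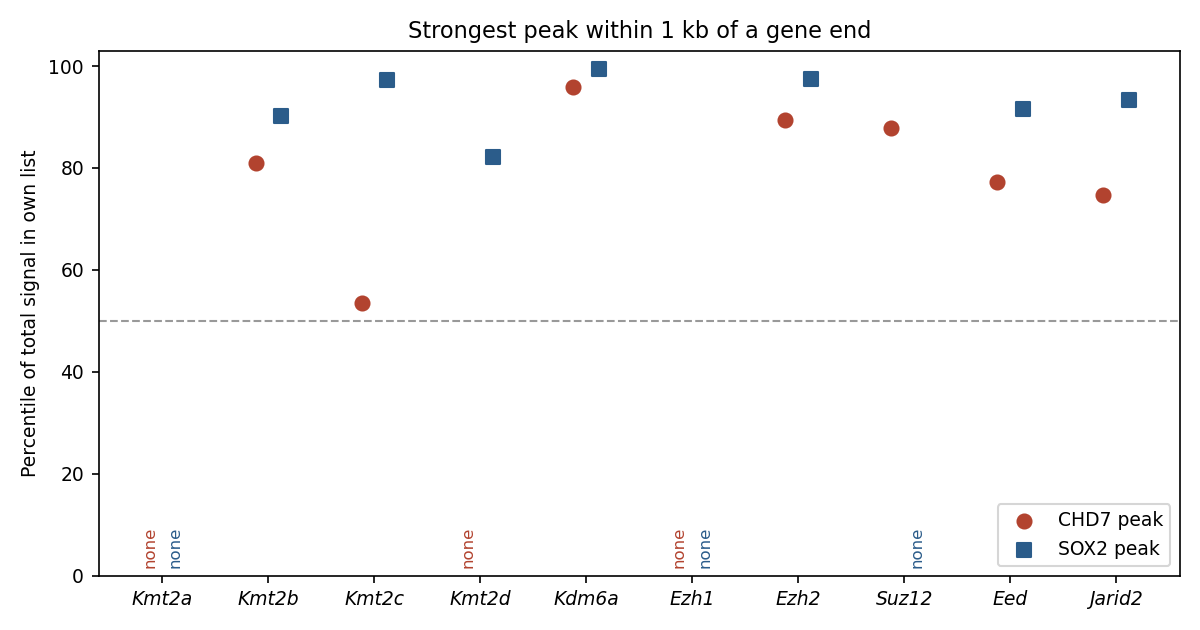
Percentile of total signal, within its own list, of the strongest CHD7 (red circles) and SOX2 (blue squares) peak within 1 kb of an end of each gene; "none" marks a gene without one and the dashed line is the median of a list. The 7 CHD7 peaks run from the percentile 53.5 at Kmt2c to 96.0 at Kdm6a, and the SOX2 peaks shown from 82.1 at Kmt2d to 99.5 at Kdm6a.

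By total signal, all 7 CHD7 end peaks of the 10 genes were above the median of their list. Of the 8 SOX2 end peaks 7 were above theirs. Total signal grows with width, and these peaks were wide, with medians of 1150 and 1100 bases against 950 and 650 in the lists. By maximum, the CHD7 peak of Kmt2c had 16 steps, under the list median of 20, and the others exceeded it. Among SOX2 end peaks Kmt2d had 5 steps, and Jarid2 had 6 at its start and 3 at its far end. The list median was 6, and the other SOX2 end peaks exceeded it. End peaks of other genes were often strong too. Of all 6742 genes with CHD7 at an end, 4211 still had it with the stronger 50% of peaks. For SOX2 10439 of 13069 genes did, so the SOX2 count is not far from the usual. The median summed end signal of the genes with a peak was 1079 for CHD7 (n = 7), against 797 over all 6742 genes with one, and 3431 for SOX2 (n = 7), against 2053 over 13069 genes. For CHD7 6 of the 7 genes had a summed end signal above the all-gene median, Kmt2c being the exception. For SOX2 5 of 7 did, with Kmt2b at the median and Kmt2d below it. Of the 7 CHD7 end peaks 6 overlapped a SOX2 peak. Among all genes, 6192 of the 6742 with CHD7 at an end had SOX2 at an end too, overlapping or not. The 6 of 7 is thus near the usual share. In 3 of these 6 pairs (Kmt2b, Kdm6a and Ezh2) the regions of maximum signal shared a base, a share not computed for other genes. In the pairs at Kmt2c and Eed the maxima lay side by side, and at Jarid2 they were 450 bases apart. At 3 of the 7 CHD7 end peaks (Kmt2b, Kmt2c and Ezh2) and 4 of the 8 SOX2 end peaks, another annotated gene had an end within 1 kb.

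Inside the genes, away from their ends, CHD7 peaks were found in 3 of the 10 (Kmt2d, Ezh2 and Jarid2). That is near the 36.8% of all genes between 20202 and 227061 bases long, the range of the 10. SOX2 peaks were inside 9 of 10, against 85.7%; Kdm6a, although 119075 bases long, had none. Together the 10 genes held 4 inner CHD7 and 26 inner SOX2 peaks, or 0.473 CHD7 and 3.08 SOX2 peaks per 100 kb of gene, against 0.987 and 6.27 in all genes of that length range. By total signal, which grows with width, the 4 inner CHD7 peaks were below the median of their list, with percentiles from 2.08 to 44.1. Their maxima were 43 steps at Ezh2, 36 and 16 at Jarid2 and 12 at Kmt2d, against a list median of 20. The peaks that reached 43 and 36 steps were 250 bases wide. The inner CHD7 peak of Kmt2d lay 496 bases from the annotated start. The strength of inner CHD7 peaks in other genes was not computed. Jarid2 held 11 of the inner SOX2 peaks and Kmt2d 5, which is 5.76 and 11.8 per 100 kb of gene. Besides the peak of Jarid2 already given, a strong inner SOX2 peak was at chr5:25410601-25411000 in Kmt2c (total signal 2434, percentile 93.1), with no CHD7 peak over it.

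**Figure D4:**
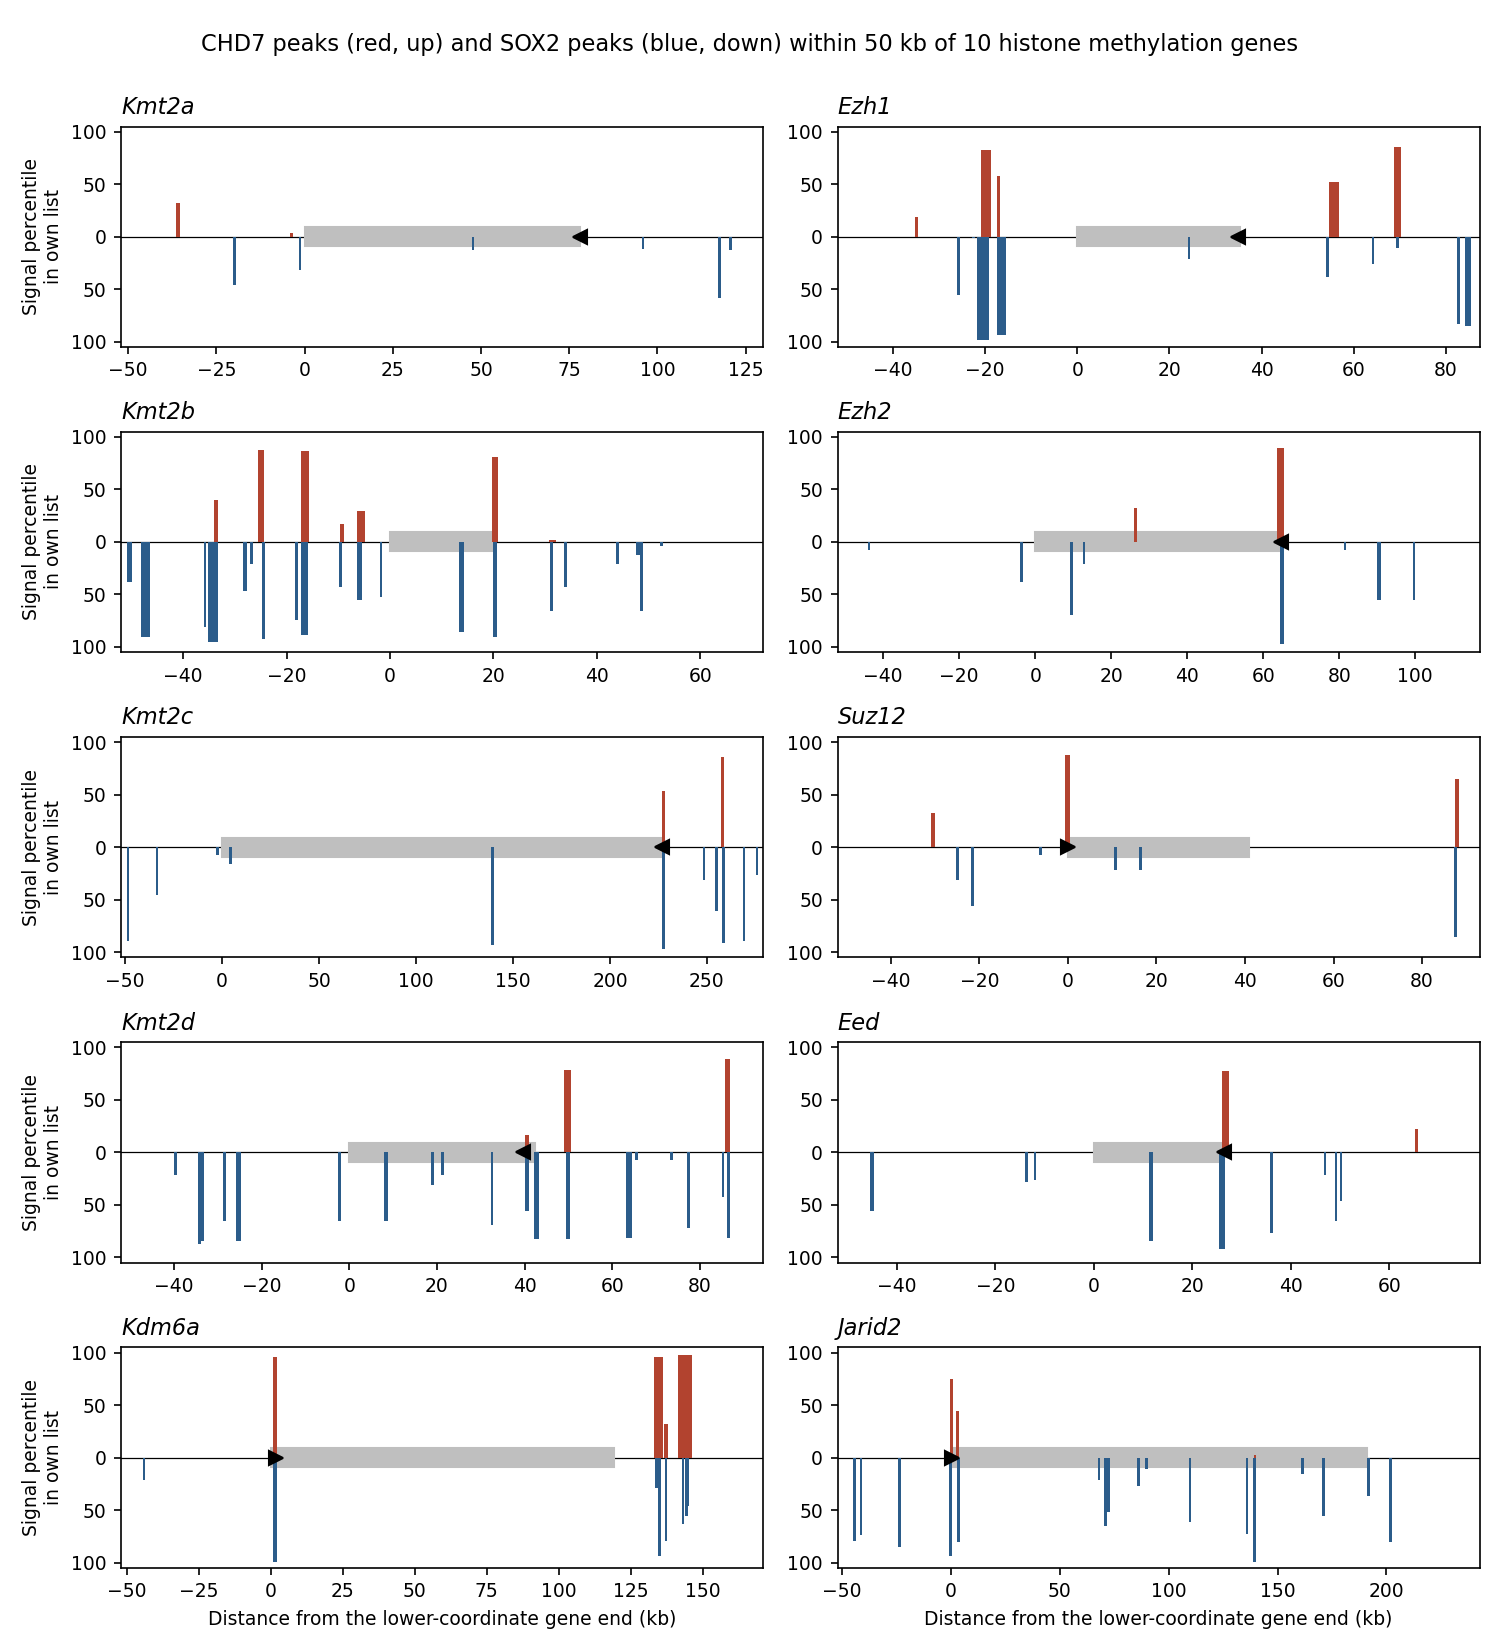
Peaks in the 10 loci, with the distance from the lower-coordinate gene end in kb on the x axis and the percentile of total signal in the peak's own list on the y axis, CHD7 upwards in red and SOX2 downwards in blue. Grey boxes are the genes and black triangles point from the annotated start along the gene (none for Kmt2b); narrow peaks are drawn wider than to scale so that they can be seen. Kmt2b and Kmt2d are crowded with SOX2 peaks, and Kdm6a has a group of peaks of both lists beyond its far end.

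In the 50 kb on either side, many CHD7 peaks lay at the ends of neighbouring genes. Of the 22 flanking CHD7 peaks 16 lay within 1 kb of an end of another annotated gene, and of the 80 flanking SOX2 peaks 32 did. The same shares in the flanks of all genes were not computed, so whether these are unusual is not known. For the genes with no end peak this held for every CHD7 peak in the locus: both at Kmt2a (at Arcn1, and at Tmem25 and Ttc36) and all 5 at Ezh1 (at Tubg2, Plekhh3 and Ccr10, Cntnap1, Ramp2, and Vps25 and Wnk4). Next to Kmt2d, a CHD7 peak at chr15:98880701-98882250 (total signal 1016, percentile 78.8) and a SOX2 peak at chr15:98881051-98881900 (total signal 1583, percentile 82.7) overlapped at the facing ends of Rhebl1 and Dhh, which encodes a Hedgehog ligand. Beside Kmt2b, peaks of both lists overlapped at the facing ends of Proser3 and of the small heat shock protein gene Hspb6, where Gm38670 also has an end. Another pair (CHD7 percentile 29.6, SOX2 percentile 55.6) lay at ends of U2af1l4 and Psenen. Psenen encodes a subunit of the gamma-secretase that releases Notch. The Kmt2b locus had 15 annotated neighbours, and all 7 of its CHD7 peaks overlapped a SOX2 peak.

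Beyond the far end of Kdm6a lay a group of broad CHD7 peaks with no annotated gene end at them. The peak chrX:18294001-18297150 was 3150 bases wide (total signal 2423, percentile 95.9) and chrX:18302401-18307000 was 4600 bases wide (total signal 3083, percentile 97.6), which are the percentiles 98.97 and 99.8 of width in the CHD7 list. With 24 and 20 steps their maxima were close to the median of the list, so their signal was broad and not high. A narrower CHD7 peak of 1250 bases lay between them. All 3 overlapped SOX2 peaks, and 6 of the 8 SOX2 peaks of the locus lay under them, with percentiles from 28.6 to 93.3.

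In the 10 loci 25 of 33 CHD7 peaks shared a base with a SOX2 peak, or 75.8% (exact 95% binomial interval 57.7% to 88.9%), against 65.3% of the whole list. Of the SOX2 peaks 28 of 114 overlapped CHD7, or 24.6% (17.0% to 33.5%), against 14.7%. The group beyond Kdm6a and the crowded locus of Kmt2b gave many of these. Without the Kdm6a locus the shares were 72.4% for CHD7 and 19.8% for SOX2 (12.7% to 28.7%), and without the Kmt2b locus 69.2% and 22.3%. The intervals cover counting error only and treat peaks as independent, which neighbouring peaks are not. Whether reads copied by PCR were removed is not known, and any that remain would add error beyond that.

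Per 100 kb of locus the 10 genes had a median of 1.70 CHD7 peaks, close to the 1.54 of all protein-coding genes (interquartile range 0.778 to 2.59), and 6 of the 10 were above that median. For SOX2 the median was 5.35, below the 7.41 of all genes (4.81 to 10.9), and 2 of the 10 were above it. Kmt2b was the densest for both lists, with 5.82 CHD7 and 16.6 SOX2 peaks per 100 kb, the percentiles 97.7 and 93.9 among all genes. Ezh1 followed for CHD7 with 3.69, all of it at neighbouring genes, and Kmt2d for SOX2 with 13.3. Kmt2c was the sparsest, with 0.612 CHD7 and 3.36 SOX2 peaks per 100 kb. Kmt2a, at 3.37, and Kdm6a, at 3.65, were likewise low for SOX2, although Kdm6a had the strongest SOX2 peak at an end.

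**Figure D5:**
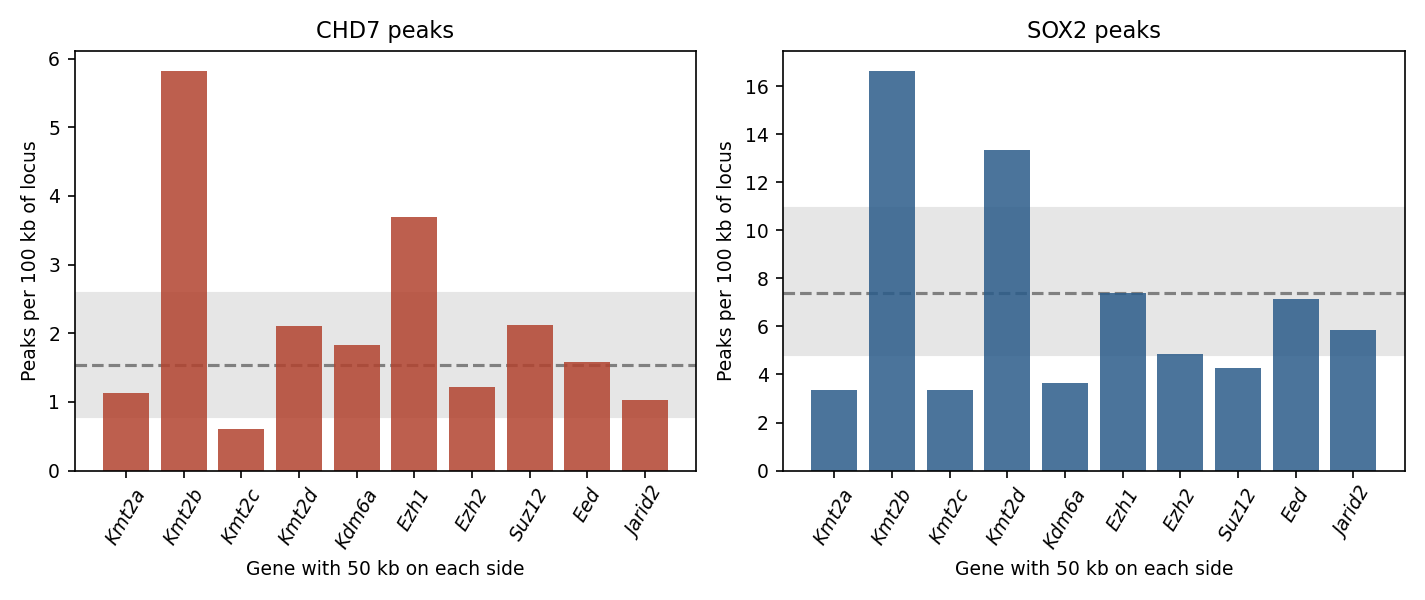
Peaks per 100 kb of each gene with 50 kb on each side, for CHD7 (left) and SOX2 (right), bars from 0; the dashed line and grey band are the median and interquartile range over 21887 protein-coding genes. Kmt2b stands above the band in both panels, with 5.82 CHD7 and 16.6 SOX2 peaks per 100 kb.

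Other genes of the same pathways were counted at their ends in 4 lists with 52 genes. In all, 23 had CHD7 (44.2%), 35 SOX2 (67.3%) and 18 both (34.6%), against the 30.8%, 59.7% and 28.3% of all genes given above. Of 15 genes for subunits of the H3K4 methyltransferase complexes 8 had CHD7 (53.3%), 12 SOX2 (80%) and 6 both (40%). Paxip1, which encodes the PTIP subunit of the KMT2C and KMT2D complexes, had a summed end signal of 1325 for CHD7, the highest of these 15 genes, and 3665 for SOX2, below the 3841 of Hcfc1. Pagr1a, for a partner of PTIP, had 719.6 and 2580.4, and Hcfc1, Psip1, Wdr5, for the core subunit shared by all these complexes, and Ncoa6 had both as well. Ash2l, for another core subunit, had neither.

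Of 7 demethylase genes 3 had CHD7 (42.9%), 1 SOX2 (14.3%) and 1 both (14.3%), against 30.8%, 59.7% and 28.3% of all genes. The single gene with SOX2, and with both, was Kdm6b, the autosomal relative of Kdm6a. Its end peaks summed to 2245 in the CHD7 list and 8093 in the SOX2 list, near the 2441 and 8621 of Kdm6a itself. Kdm1a, Kdm5b and Kdm5d had neither, and neither did Uty, the Y-linked relative of Kdm6a. Kdm5d is on chromosome Y as well. The sex of the pooled embryos is not given, so the absence of peaks at Uty and Kdm5d says little. Kdm5a and Kdm5c had CHD7 alone; they and Uty are named here after their values were seen. Of 8 accessory PRC2 genes 4 had CHD7 (50%), 6 SOX2 (75%) and 4 both (50%). Those with both were the histone chaperone genes Rbbp4 (1845 and 5747) and Rbbp7 (601 and 2786), and Phf1 (788 and 8122) and Mtf2 (474 and 997), which encode Polycomb-like proteins. Phf19, the third of these, and Ezhip had neither.

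Of 22 genes for PRC1, the Polycomb complex that ubiquitinates histone H2A, 8 had CHD7 (36.4%), 16 SOX2 (72.7%) and 7 both (31.8%). The shares of all genes were 30.8%, 59.7% and 28.3%, so the counts for CHD7 and for both are near the usual. Rnf2, for its main ubiquitin ligase, had end peaks summing to 1958 in the CHD7 list and 5454 in the SOX2 list, and Pcgf3 had 1630.5 and 6158; Pcgf1, Pcgf2, Cbx8 and Phc1 also had both. Bcor, Bcorl1 and Cbx7 were among the 5 with neither. Presence was also noted for each list at the ends, inside and in the flanks. Ezh2 and Jarid2, which share 1 pattern, matched none of the 52 companion genes. Kmt2a and Ezh1, which share another, matched 1, whereas Kmt2b, Kmt2c and Eed, which also share 1 pattern, matched 6. How common these patterns are among all genes was not computed.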

How the data were processed

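CUT&Tag libraries of E10.5 mouse otocysts were aligned and their peaks called by the authors; Bowtie2, deepTools, SEACR and the build mm10 are named in the submitters' processing notes, without versions or settings. Each deposited list gives, per peak, the signal summed over its bases, its maximum signal and the region of that maximum, by the column order of SEACR. The scaling of that coverage, any role of the control library in calling and the removal of duplicate reads were not given in the sources used here. Maxima are whole multiples of a step (within 0.001 of a step up to 200 steps), 0.0911 in the CHD7 list and 0.586 in the SOX2 list, so signal was compared only within a list. Borders follow bins of 50 bases, and coordinates count from 1.

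Gene borders came from a RefSeq table of GRCm38.p6 and starts, strands and promoter sequences from a RefSeq promoter table of the same build, which gave 9 of the 10 genes. Peaks were shared with at least 1 base in common. The members, lists and rules were chosen with earlier results of these data known. All 10 members were named; of each companion list up to 6 genes with both proteins, ordered by the worse of their 2 places when sorted on summed end signal, and up to 3 with neither were named. Intervals are exact binomial (Clopper-Pearson) at 95%. Alternatives were other end windows and locus sizes, stricter peak sets, other overlap rules and starts in place of ends; CpG-rich promoters as background and shares without 1 locus were added after seeing the data. The counting was tested on simulated data. Of the otic marker list, 1 gene is not reported here. Figures were drawn with matplotlib 3.10.9 and all counts were made in Python 3.11.15, with scipy 1.17.1 for intervals and pandas 2.3.3 and numpy 2.4.6 for tables.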

Additional observations from a re-analysis of the deposited data

How the results depend on the processing

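The numbers of the 10 genes with CHD7, SOX2 or both at an end stayed within 1.5 times the reported 7, 7 and 6 with ends of 500 bases or 2 kb, with the annotated start alone and with the stronger 50% of peaks. With the stronger 50% the counts were still 7, 7 and 6, against 19.2%, 47.7% and 17.7% of all protein-coding genes. Kdm6a lost both end peaks with 500 bases, as its peaks lie 889 bases from the border. With 2 kb, Kmt2d gained CHD7 and Kmt2a gained SOX2. With the 10000 strongest peaks of each list CHD7 was at an end of 6 of the 10 genes, SOX2 of 3 and both proteins of 2, against 13.3%, 16.9% and 9.06% of all protein-coding genes. Kmt2b, Kmt2d, Eed and Jarid2 lost SOX2 and Kmt2c lost CHD7. Among the 52 companion genes the stronger 50% left 9 with CHD7, 28 with SOX2 and 9 with both, against the 19.2%, 47.7% and 17.7% of all genes. The 10000 strongest left 7 with CHD7, 10 with SOX2 and 6 with both, against 13.3%, 16.9% and 9.06%. In both stricter sets the CHD7 count of the companion genes was thus near the all-gene share, whereas with all peaks it was 44.2% against 30.8%.

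Peaks in the loci, 33 for CHD7, 114 for SOX2 and 25 shared, depend on the definition by construction. They were 13, 39 and 10 with 5 kb on each side, 57, 195 and 44 with 100 kb, 19, 65 and 16 with the stronger 50% and 15, 7 and 3 with the 10000 strongest. Of the 33 CHD7 peaks 10 were shared when the maximum-signal regions had to share a base. Depth is unknown, and a gene without a peak may hold signal below the authors' threshold. Without replicates or the control library the spread of these counts cannot be given. No paired analysis was possible because each antibody has 1 library.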

Other observations

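Just outside the 50 kb around Ezh2 lay a CHD7 peak at chr6:47650301-47687050, 55031 bases from the gene and 36750 bases wide. Its total signal of 101785 was at the percentile 99.99 of the CHD7 list, with a maximum of 158 steps, and it covered 8 annotated genes, among them Rn4.5s, annotated as an rRNA gene. A SOX2 peak wholly inside it, chr6:47650451-47652550, had a total signal of 5571 (percentile 98.8). Whether reads map uniquely there was not checked, and the sample without primary antibody was not looked at, so an artefact was not tested. Beside Kmt2c, a SOX2 peak at chr5:25217701-25218150 (total signal 7858, percentile 99.4) lay 53645 bases away, also just outside, and the farthest peak counted, a SOX2 peak of Kmt2b with a total signal of 938, was 49905 bases from its gene.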
